A study of Mus musculus with 12 samples.

Results

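Matrix proteases, aminopeptidase N and versican were examined in airway macrophages (AMs) through 4 genes: the matrix metalloproteinases Mmp12 and Mmp9, the cell surface peptidase Anpep (aminopeptidase N) and the proteoglycan Vcan (versican). The 4 genes were chosen from readouts of this series, with the difference between Scnn1b-Tg and WT AMs already known, out of 1999 genes that could be paired, through their mean normalized count, with one of the 19161 unnamed rows of the count table. The other 17162 rows have no gene name here. The libraries hold RNA of AMs (CD45+ Siglec-F+ CD11c+) sorted from lungs of 6-week-old female C57BL/6 mice, with 6 libraries from Scnn1b-Tg mice and 6 from WT littermates. In Scnn1b-Tg mice the transgene is driven by the club cell secretory protein promoter, which is active in airway epithelium. The labels give 4 batches: batches 1, 2 and 3 hold 1 library of each genotype (Tg 1 to Tg 3 and WT 1 to WT 3), and batch 4 holds 3 of each (Tg 4 to Tg 6 and WT 4 to WT 6). Within batch 4 the library titles carry one flow cell identifier for WT and another for Scnn1b-Tg, so genotype and flow cell cannot be told apart there. Total counts per library ran from 65764040 to 121813289 in batches 1 to 3 and from 40259958 to 51832335 in batch 4.

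Macrophage metalloproteinases cleave elastin, collagens and other matrix proteins, and Mmp12 is also known as macrophage elastase. Mmp9 is a gelatinase that is abundant in neutrophils and is released by activated macrophages too. Aminopeptidase N trims the amino end of peptides at the cell surface, and versican is a large hyaluronan-binding proteoglycan made by stromal cells and by monocytes. In bulk samples, fewer cells of a type and less RNA per cell cannot be told apart. Values are CPM, the counts of a gene relative to the total of its library, scaled by the trimmed mean of M-values (TMM).

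Mmp12 was higher in every Scnn1b-Tg library than in any WT library. In Scnn1b-Tg AMs its CPM was 16.6 at the lowest, 25.7 at the median and 62.1 at the highest, and in WT AMs 4.16, 8.32 and 12.6. The groups of 6 did not overlap, Tg 1 was the highest and Tg 3 the lowest of the Scnn1b-Tg libraries, and WT 6 was the lowest of all. The means were 32.4 ± 16.4 (SD, n = 6) and 8.53 ± 2.77 (SD, n = 6). Within batches Scnn1b-Tg over WT was 4.92-fold in batch 1, 4.74-fold in batch 2, 2.13-fold in batch 3 and 3.39-fold in batch 4. The fitted log2 fold change with the batch as block was 1.82 ± 0.23 (SE).

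Anpep was also higher in every Scnn1b-Tg library than in any WT library. Its CPM in Scnn1b-Tg AMs was 10.2 at the lowest, 18.5 at the median and 43.3 at the highest, and in WT AMs 2.27, 3.92 and 9.89. The groups of 6 did not overlap, but the margin was narrow, since WT 2 came within a small distance of Tg 3 and Tg 4. The means were 20.8 ± 12.2 (SD, n = 6) and 5.24 ± 3.02 (SD, n = 6). Within batches the ratio was 5.37 in batch 1, 2.43 in batch 2, 4.49 in batch 3 and 4.22 in batch 4. The fitted log2 fold change was 2.02 ± 0.20 (SE).

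Mmp9 lay near the detection floor. It had 192, 27, 100, 18, 9 and 24 counts in Tg 1 to Tg 6, and 20 and 11 counts in WT 1 and WT 2. In WT 3 to WT 6 it had 0 counts, which allows a CPM of up to 0.0499 to 0.0557 (3 counts per library; counting error only). In CPM the Scnn1b-Tg libraries ran from 0.187 through a median of 0.365 to 1.95, and the WT libraries from 0 through a median of 0 to 0.292, so the groups overlapped. Tg 1 and Tg 3 stood high and the other 4 Scnn1b-Tg libraries were close to WT 1. Within batches the CPM in Scnn1b-Tg was 6.66-fold that in WT in batch 1 and 2.66-fold in batch 2, and at least 27.4-fold higher in batch 3 and at least 5.79-fold higher in batch 4, where WT is set at the floor of 3 counts per library. The fitted log2 fold change of 4.93 ± 1.26 (SE) depends on the prior count and is no bound.

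Vcan was low in all libraries and went the other way. It had 5 to 76 counts in Scnn1b-Tg and 14 to 174 counts in WT, and in CPM 0.0507 at the lowest, 0.546 at the median and 1.12 at the highest in Scnn1b-Tg AMs and 0.244, 1.75 and 3.23 in WT AMs. The groups of 6 overlapped: the high WT values were WT 4 to WT 6 of batch 4 with 2.86, 2.36 and 3.23, while WT 1 to WT 3 had 0.453, 1.14 and 0.244. WT over Scnn1b-Tg was 8.94 in batch 1, where Tg 1 had 5 counts, 1.32 in batch 2, 1.31 in batch 3 and 3.82 in batch 4. The fitted log2 fold change was -1.61 ± 0.50 (SE). The CPM was lower in Scnn1b-Tg than in WT in each of the 4 batches, but batch 3 had 13 against 14 counts, which cannot be told apart at this depth, and most of the distance came from batch 1, with few counts, and batch 4.

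**Figure D1:**
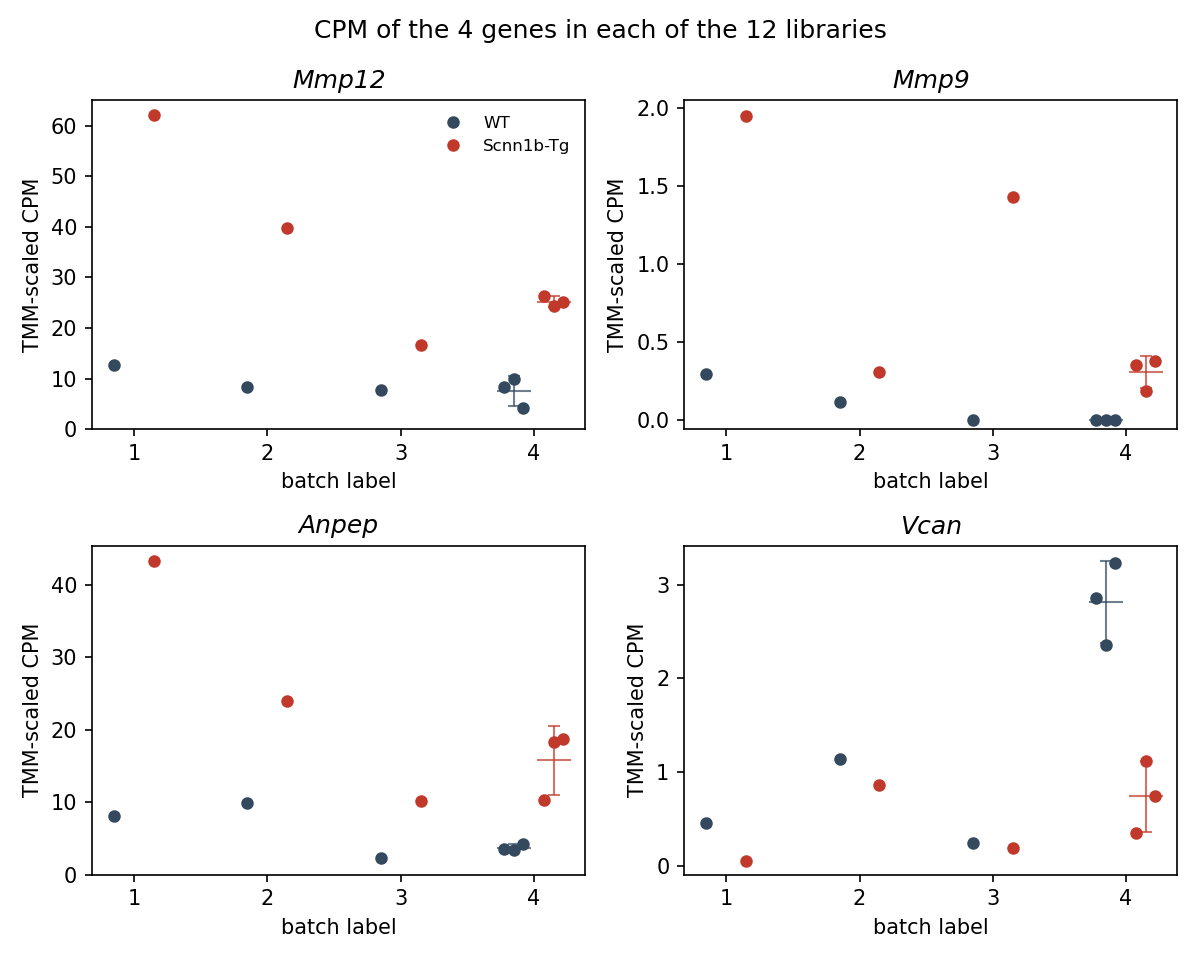
TMM-scaled CPM (linear y axis) of Mmp12, Mmp9, Anpep and Vcan in each of the 12 libraries by batch label (x axis), with Scnn1b-Tg in red and WT in dark blue; bars in batch 4 are mean ± SD of 3 libraries. Mmp12 and Anpep are higher in Scnn1b-Tg in each batch, Mmp9 is 0 in WT of batches 3 and 4, and Vcan is high in WT of batch 4 at 2.36 to 3.23.

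Of the 4 members, Mmp12 and Anpep, were among the 60 rows called between Scnn1b-Tg and WT (adjusted p under 0.1 and absolute log2 fold change above 0.5), and Mmp9 and Vcan were not; 0.354% of the 16972 rows tested were called. The same 2 of 4 had no overlap between groups, against 0.259% of rows. As the members were chosen on this contrast, nothing is read from these counts and no p is given for it. Without the batch as block, edgeR called 0 rows (270 at an unadjusted p under 0.05). That fit also tested fewer rows, 14255 against 16972, so the block was not the only change. DESeq2 with the batch in the design called 248 rows, all 4 members included. Without Tg 1 the count was 22. Mmp12 and Anpep were called in each of the 12 fits that leave out 1 library, neither was called without the block or in batches 1 to 3 alone, and in batch 4 alone Anpep was called and Mmp12 was not. All 4 members passed the expression filter; Mmp9 had 10 or more counts in 5 of 6 Scnn1b-Tg and 2 of 6 WT libraries.

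Whether the genotype difference was alike in both sets of batches was tested as the difference of the differences, batch 4 minus batches 1 to 3. For Mmp12 it was -0.12 ± 0.46 on the log2 scale (SE; edgeR adjusted p = 1), an interval of 2 SE either side running from -1.05 to 0.80. For Anpep it was 0.12 ± 0.41 (edgeR adjusted p = 1). The corresponding values were 3.96 ± 2.28 for Mmp9 (edgeR adjusted p = 0.807; with WT at 0 throughout batch 4 this value depends on the prior count and the batch ratios do not fix its sign) and -0.72 ± 1.04 for Vcan (edgeR adjusted p = 0.954). None of the 4 was called, against 0.112% of rows (19 of 16972, with 1130 at an unadjusted p under 0.05); DESeq2 called 237 rows. A missed threshold does not show that the batches acted alike, and the SE for Mmp9 and Vcan was over 1 log2 unit.

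The level of each member was also compared between batch 4 and the mean of batches 1 to 3, with genotype in the fit. The p-values here rest on spread between libraries within batches and do not measure the spread from batch to batch. Vcan was 2.04 ± 0.49 higher on the log2 scale in batch 4 (edgeR adjusted p = 0.00573), from a mean of 0.491 CPM (0.0507 to 1.14 over 6 libraries) to 1.78 CPM (0.351 to 3.23 over 6 libraries). In WT AMs its mean went from 0.614 to 2.82 CPM, and in Scnn1b-Tg AMs from 0.367 to 0.737. The mean of Mmp9 went from 0.683 CPM in batches 1 to 3 to 0.153 CPM in batch 4 (6 libraries each), where WT was at 0, so its fitted value depends on the prior count. Mmp9 had a log2 difference of -3.11 ± 1.09 (edgeR adjusted p = 0.0353), which fell short of the threshold without Tg 3 (-1.33, edgeR adjusted p = 0.992; range over alternatives 0.0102 to 0.992). Anpep had a log2 difference of -0.56 ± 0.19 (edgeR adjusted p = 0.0336) and Mmp12 of -0.42 ± 0.22 (edgeR adjusted p = 0.136). So 3 of 4 members were called here, where 49.8% of the rows tested were called, a share in which the members do not stand out. The batch label and the depth, lower in each library of batch 4, cannot be told apart. The paper made its baseline libraries with different kits and sequencers, some read paired-end and others single-end. The labels do not tie these to libraries, and their part in the batch level was not tested. The call for Anpep was lost without Tg 1, Tg 3, Tg 4 or WT 2.

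**Figure D2:**
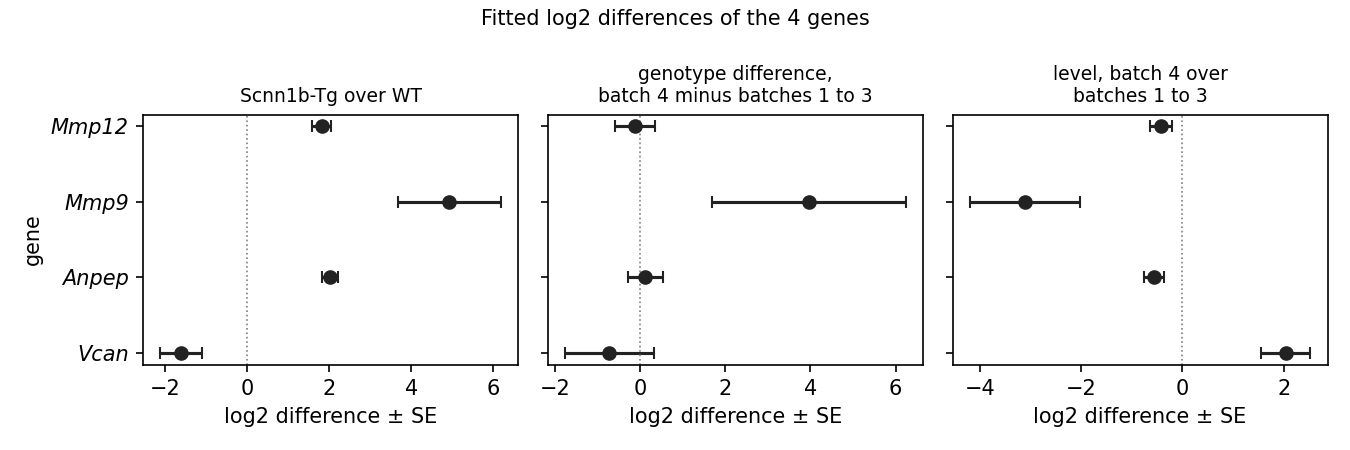
Fitted log2 differences of the 4 genes (points) with their standard errors (bars) for Scnn1b-Tg over WT, for the genotype difference in batch 4 minus that in batches 1 to 3, and for the level in batch 4 over batches 1 to 3, with log2 units on the x axis. Vcan lies at 2.04 in the last panel, and Mmp9 has the widest bars in each panel.

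Between genes, levels were compared as CPM per kilobase of the longest annotated coding transcript (3.61 kb for Mmp12, 3.17 for Mmp9, 3.8 for Anpep and 12.4 for Vcan). In Scnn1b-Tg AMs the order was Mmp12 with 8.97 ± 4.54 (SD, n = 6), Anpep with 5.48 ± 3.23, Mmp9 with 0.242 ± 0.232 and Vcan with 0.0444 ± 0.0338. In WT AMs it was Mmp12 with 2.36 ± 0.769, Anpep with 1.38 ± 0.795, Vcan with 0.138 ± 0.103 and Mmp9 with 0.0214 ± 0.0376. Mmp12 lay above Anpep in 11 of 12 libraries, although the ranges of the group means ± SD overlap, and both lay far above the pair of low genes. Mmp9 lay above Vcan in 5 of 6 Scnn1b-Tg libraries and in 1 of 6 WT libraries.

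Across the 12 libraries, after removal of batch means, the correlation of log2 CPM was 0.88 for Mmp12 with Anpep, 0.92 for Mmp9 with Anpep, 0.80 for Mmp12 with Mmp9 and -0.84 for Mmp12 with Vcan (n = 12 libraries, which share batch and genotype). With genotype means removed as well it was -0.35, 0.27, -0.51 and -0.37. The choice of the members on the genotype difference sets the first values, so nothing is read from them or from their drop. Of 1995 other named genes, the most similar to Mmp12 were Eloa (0.96, and 0.83 with genotype removed), Il1a (0.96 and 0.70) and Rilpl2 (0.96 and 0.53). Mmp9 was most similar to Mreg (0.96 and 0.73), Igf1 (0.96 and 0.72) and Syngr1 (0.96 and 0.72). Anpep was most similar to Rgcc (0.98 and 0.75), a gene with no symbol in the name table, ENSMUSG00000099297 (0.98 and 0.73), and Ptgir (0.97 and 0.47). Vcan was most similar to mt-Tl2 (0.95 and 0.83), Ifi203 (0.94 and 0.88) and Morf4l2 (0.94 and 0.88). Each is among the highest of 1995 values, from names in a table sorted on the genotype contrast. High values arise from that choice alone, so nothing is read from them either.

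Related genes were counted from lists of matrix proteases, inhibitors and matrix proteins; 34 of 155 listed genes are named here, members included, and the names come from a table sorted on the same contrast, so these counts are a description. All 60 called rows are among the 1999 named genes, a share of 3%, beside 0.354% of all rows tested, and nothing is read from the share of calls in a list. A gene with a log2 value of 0.5 or smaller in size is not called, whatever its SE. Of the 4 named metalloproteinases (of 23), Mmp12 and Mmp8 (collagenase, log2 0.73 ± 0.11) were called higher, and Mmp24 (2.99 ± 1.54) and Mmp9 were not. Mmp8 had CPM 56.5 to 91.3 in Scnn1b-Tg and 37.2 to 50.7 in WT AMs, without overlap. Timp2, the only named inhibitor of 9, was called higher (log2 0.61 ± 0.10). Of the 6 named peptidases of 16 in the list of Anpep, 1 was called, Anpep; the others were Ace (0.27 ± 0.12), Dpp7 (0.28 ± 0.09), Erap1 (-0.19 ± 0.09), Rnpepl1 (0.17 ± 0.08) and Lnpep (-0.32 ± 0.11), none with a fold near that of Anpep. Of the list of hyaluronan-binding proteoglycans and hyaluronan genes 2 of 21 are named, Vcan and Hyal2 (0.27 ± 0.11), and neither was called. Of 7 named cathepsins of 14, Ctsk (0.77 ± 0.10) was called higher, and Ctsd (0.30 ± 0.08), Ctsb (0.26 ± 0.06), Ctsz (0.26 ± 0.05) and Ctsc (0.20 ± 0.09) were not called. None of the 4 ADAM and ADAMTS genes of 30 was called (Adam8 1.73 ± 0.77, Adam22 -0.87 ± 0.45, Adam33 1.00 ± 0.20, Adamts10 0.32 ± 0.13). Of the list for the plasminogen system and serine elastases, 2 of 12 are named (Plau 0.39 ± 0.15, Slpi -0.34 ± 0.07), and neither was called. None of the 8 matrix proteins of 30 was called, among them Spp1 (0.33 ± 0.11), Emilin2 (-0.27 ± 0.09), Col4a1 (1.34 ± 0.38) and Col1a2 (2.01 ± 1.47). The fitted value of Col1a2 runs against its mean CPM, 1.6 in Scnn1b-Tg and 2.57 in WT AMs, and 4 WT libraries were at 0. Without the members, the median log2 fold change was 1.86 over the 2 metalloproteinases, 1.82 over the matrix proteins and 0.66 over the ADAM and ADAMTS genes. It was 0.26 over the cathepsins, 0.17 over the 5 peptidases and 0.02 over the list for the plasminogen system and serine elastases. Several of these medians rest on genes with libraries at 0. The median was 0.01 over all 16972 rows and 0.20 over the 1999 named genes.

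Markers of other cells were read beside the members. The sort on CD45, Siglec-F and CD11c selects against fibroblasts, epithelium and neutrophils, and its Siglec-F gate against dendritic cells and monocytes. The paper checked the purity of selected samples and reported it as high but not complete. Of the neutrophil list, 5 of 16 genes are named, Mmp9 among them. Without Mmp9 the summed CPM ran from 104 to 163 in Scnn1b-Tg and from 73.8 to 118 in WT AMs. By mean CPM the most abundant was Mmp8 in Scnn1b-Tg AMs (71.4, Csf3r 37.2) and Csf3r in WT AMs (47.5, Mmp8 43). The log2 values were 1.02 ± 0.30 for Cxcr2, 4.73 ± 1.55 for Cd177 and -0.35 ± 0.09 for Csf3r, none called. Mmp8 was at 0.73 ± 0.11 and was called higher. Cd177 was at 8 CPM in Tg 2 and at 0 in 2 Scnn1b-Tg and 4 WT libraries. Of the dendritic cell list, 3 of 8 are named, and their summed CPM was higher in Scnn1b-Tg than in WT AMs in each batch. It was 85.9 against 7.59 in batch 1, 7.56 against 1.61 in batch 2 and 2.9 against 1.26 in batch 3. In batch 4 it was 0.8, 3.13 and 5.42 against 0.399, 0.298 and 0.427. The log2 values were 3.33 ± 0.73 for Cd209a, 2.29 ± 0.81 for Mgl2 and 4.38 ± 2.11 for Flt3, none called, with libraries at 0 for each gene. Mgl2 (47.4) and Cd209a (35.8) were high in Tg 1, and alternatively activated macrophages are known to express both genes too. Tg 1 was also the highest library for Mmp12, Mmp9 and Anpep and the lowest for Vcan; without Tg 1 the log2 fold change was 1.72 for Mmp12, 6.08 for Mmp9, 1.94 for Anpep and -1.34 for Vcan. Of the monocyte and recruited macrophage list, 4 of 15 are named, Vcan among them, and Csf1r, the most abundant of them, had a log2 value of 0.24 ± 0.09. The summed CPM of the 4 named genes, Vcan included, was 256 in Scnn1b-Tg against 147 in WT AMs in batch 1. It was 190.3 against 184 in batch 2 and 184 against 166 in batch 3. In batch 4 the sums were 381, 340.4 and 332 against 306, 314 and 330.1. Of the AM list, 10 of 20 are named, and the most abundant, Chil3, was at 22330.2 to 59322 CPM in Scnn1b-Tg and 21372 to 32061 in WT AMs. Siglecf, a gene of the gate, was at 239 to 473 and 279 to 585, with a log2 value of -0.31 ± 0.06 and no call. In batches 1 to 3 Siglecf was at 239, 268 and 295 in Scnn1b-Tg against 279, 321 and 367 in WT AMs. In batch 4 it was at 395 to 473 against 528 to 585. The summed CPM of the list ran from 27949.6 to 68076 in Scnn1b-Tg and from 27790.1 to 39672 in WT AMs. Of the 10, 3 were called, named here after their values were seen: Krt79 was lower (-0.65 ± 0.07, at 312 to 431 CPM in Scnn1b-Tg and 506 to 638 in WT AMs, without overlap), and Fabp5 (0.59 ± 0.10) and Ctsk (0.77 ± 0.10) were higher. Col1a2 (fibroblasts, 1 of 10 named) was at 5.49 and 3.43 CPM in Tg 1 and Tg 2 and at 8.77 and 6.67 in WT 1 and WT 2. It was at 0.301 in Tg 3, at 0.41 in Tg 6 and at 0 in 2 Scnn1b-Tg and 4 WT libraries. Of 13 epithelial genes 3 are named, with a summed CPM of 102 to 235 in Scnn1b-Tg and 88.6 to 137 in WT AMs. Cdh1 carried most of that sum (99.1 to 162 and 86.9 to 125 CPM), and Foxj1 had at most 2.3 CPM. Scnn1b itself was at 72 and 54.1 CPM in Tg 1 and Tg 2 and 11.6 and 12.8 in WT 1 and WT 2. It was at 1.15 to 4.35 in Tg 3 to Tg 6 and 0 to 1.48 in WT 3 to WT 6. None of 7 eosinophil and 6 red blood cell genes is named here. The part of these cells in the members' values was not tested.

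The positions are those of GENCODE on the GRCm38 build: Mmp12 on chromosome 9 from 7344381 to 7369499 (plus strand), Mmp9 on chromosome 2 from 164940780 to 164955850 (plus strand), Anpep on chromosome 7 from 79821803 to 79861059 (minus strand) and Vcan on chromosome 13 from 89655312 to 89742509 (minus strand). The counts take no strand, so overlapping genes can share them: an exon of Mmp1b on the opposite strand overlaps an exon of Mmp12 by 157 bases. An annotated gene within Anpep (Gm44974), a second within Vcan (Gm16318) and a further one on the opposite strand that runs across the start of Vcan (Gm4117) share no exon bases with them. Mmp9 has no overlapping gene in the annotation.

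RefSeq promoter entries (GRCm38.p6) were found for 3 of the 4 genes, in 4 windows of up to 250 bases before an annotated start. The windows of Mmp12 and Anpep are shown, as the members whose groups of 6 did not overlap. Mmp12 has 2 windows, one before its outermost starts and one before the start, inside the gene, of the transcript used for its length. The window of Anpep also lies inside the annotated gene, before the start of the transcript used for its length, since another transcript starts further upstream. The motifs were picked by hand and searched on both strands, and capitals mark matches to AP-1 TGANTCA, PU.1 GAGGAAGT and C/EBP TTGCNNAA. A STAT6 and an NF-kB motif were searched too, had no match in the members' windows and are not shown. Among 32851 windows of 250 bases the 3 motifs shown were found in 6.75%, 2.44% and 9.56%. Counted from the RefSeq start at 7344397, the last bases before which are not printed because an annotated exon begins at 7344381, the outer window of Mmp12 holds a PU.1 match that begins 88 bases and a C/EBP match that begins 39 bases before the start. The inner window of Mmp12 holds an AP-1 match that begins 44 bases before the RefSeq start at 7347374, and the windows of Anpep and Vcan hold no match. A match is a description of these letters and not a binding site.
Mmp12, chr9:7344147-7344380, plus strand: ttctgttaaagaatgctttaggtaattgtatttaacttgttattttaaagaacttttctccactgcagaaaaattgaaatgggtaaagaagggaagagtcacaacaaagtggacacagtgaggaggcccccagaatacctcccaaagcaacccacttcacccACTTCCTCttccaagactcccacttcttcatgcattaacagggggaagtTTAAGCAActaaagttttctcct
Mmp12, chr9:7347124-7347373, plus strand: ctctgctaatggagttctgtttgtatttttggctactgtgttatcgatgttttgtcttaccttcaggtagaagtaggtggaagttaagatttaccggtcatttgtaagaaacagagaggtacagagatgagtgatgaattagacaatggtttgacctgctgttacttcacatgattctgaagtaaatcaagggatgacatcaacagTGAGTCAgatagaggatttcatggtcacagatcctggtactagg
Anpep, chr7:79848211-79848460, minus strand: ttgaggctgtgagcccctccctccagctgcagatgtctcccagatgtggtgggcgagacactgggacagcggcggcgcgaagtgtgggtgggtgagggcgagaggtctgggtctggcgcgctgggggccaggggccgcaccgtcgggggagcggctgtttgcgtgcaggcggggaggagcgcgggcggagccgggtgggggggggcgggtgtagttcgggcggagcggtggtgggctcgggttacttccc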

How the data were processed

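RNA was measured in 12 libraries, deposited as 1 table of whole-number counts without gene names. The authors aligned reads with HISAT2 to mm10 without strand and derived counts from StringTie coverage, so a count is not a read; the labels do not tie kits or read types to libraries. Rows were matched to genes through the mean normalized count in a published table, whose fold changes and p-values were not used; 1999 of 1999 genes matched within a relative difference of 1e-10. The members and lists were chosen with earlier results of these data known.

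Counts were scaled by TMM and fitted with edgeR 4.0.16 in R 4.3.3 (quasi-likelihood test, default expression filter, Benjamini-Hochberg over 16972 rows), with the batch as block; DESeq2 1.42.0 was an alternative, as were other scaling, no filter, other blocks, batch subsets and leaving out each library. SEs are the absolute log2 value over the square root of F. P-values measure the spread between these libraries that is left after batch and genotype are fitted. For the level of batch 4 over batches 1 to 3 they do not measure the spread between batches. Named genes were the members, at most 4 of the highest mean CPM in each list, further called matrix genes and the 3 genes most like each member, and, outside this rule and after their values were seen, Siglecf, Krt79 and Fabp5; 1 gene was left out of the lists and is not reported here. Libraries of one batch and number deviated together from their group means (correlations 0.414 to 0.622; the batch comes from the labels). All 30 pairs of libraries within a genotype differed beyond sampling noise.

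The fits were tested on simulated data. Bias and the share of false calls were within limits that were set with the measured values in view. A first limit on recovery of known differences was missed for the contrast between batch sets and for the batch level and was dropped after that result was seen, so these contrasts can miss true differences. The matching was tested in the same way, with a narrower range of scale errors after a first failure.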

Additional observations from a re-analysis of the deposited data

Results flagged for a closer look

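By Dixon's criterion, chance gives a library far from the others in about 1 of 20 groups whose 6 libraries differ by noise alone. Each group here mixes batches 1 to 3 with batch 4, so that share does not hold strictly. Among 114 groups of 6 libraries (57 named genes in each genotype), 15 held such a library in CPM, and none concerned the 4 members. In Tg 1 these were Adam8 at 5.66, Chil3 at 59322, Flt3 at 2.73, Cd209a at 35.8, Mgl2 at 47.4 and Igf1 at 131. In WT 1 they were Col4a1 at 7.32, Cd177 at 0.76, Cd209a at 2.73 and Mgl2 at 4.42. In Tg 2 they were C1qb at 12.9 and Cd177 at 8, in WT 2 C1qb at 14.2 and Foxj1 at 1.96, and in Tg 3 Mmp24 at 1.46. All of these libraries belong to batches 1 to 3. No difference in genotype effect between batch sets passed the threshold for the 4 members.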

How the results depend on the processing

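Rows called between Scnn1b-Tg and WT numbered 60, 248 with the DESeq2 Wald test, 28 with a replicate block of 6 pairs and 22 to 53 without 1 library. In batch 4 alone 52 were called. With edgeR, 0 were called without the replicate block or in batches 1 to 3 alone (270 and 1009 at an unadjusted p under 0.05). These fits tested 14255 and 16439 rows, against 16972 in the main fit. The block of 6 pairs changed no member's call; without a block, and in batches 1 to 3 alone, neither Mmp12 nor Anpep was called. Rows whose genotype difference differed between batch sets numbered 19, 11 without the expression filter, 237 with DESeq2 and 6 to 42 without 1 library. Batch rows ran from 7948 to 8462 without 1 library. The log2 fold changes of Mmp12, Anpep and Vcan kept their sign and moved by less than 1 SD in all 19 alternatives (without 1 library 1.70 to 1.96, 1.93 to 2.16 and -1.86 to -1.34); that of Mmp9 was 7.10 in batch 4 alone, 3.33 in batches 1 to 3 alone, 3.43 without the replicate block and 4.16 to 6.08 without 1 library. The genotype difference between batch sets ran, without 1 library, from -0.49 to 0.14 for Mmp12 and from -0.18 to 0.39 for Anpep, crossing 0, from 2.47 to 5.37 for Mmp9 and from -1.51 to -0.17 for Vcan. The batch level without 1 library ran from -0.54 to -0.21 for Mmp12 (called without Tg 3 or WT 5), from -3.97 to -1.33 for Mmp9, from -0.65 to -0.36 for Anpep (not called without Tg 1, Tg 3, Tg 4 or WT 2) and from 1.85 to 2.49 for Vcan, called in every alternative. The causes were not tested. Mmp9 and Vcan had few counts, 0 to 192 and 5 to 174 per library.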
